A study of Mus musculus with 12 samples.

Results

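The major urinary proteins are small carrier proteins of the lipocalin family that the mouse liver secretes into blood and that pass into urine, where they bind and slowly release volatile pheromones. Of the genes that encode them, 10 were described here (Mup1, Mup2, Mup3, Mup7, Mup10, Mup14, Mup17, Mup20, Mup21 and Mup22), chosen by symbol from the 55367 gene symbols of the table. The same table held 12 other Mup genes and 27 Mup pseudogenes, which served for comparison. Liver RNA was sequenced from wild-type Balb/c mice aged 6 weeks, in 6 control samples (numbered 3 to 8) and 6 samples with severe acute pancreatitis (SAP, numbered 10 to 15). SAP followed treatment with caerulein, an analogue of cholecystokinin that drives the exocrine pancreas beyond its normal secretion, so the liver was examined as an organ remote from the injury. The design text speaks of more than 1 mouse model, whereas the labels give a single strain, a control and a caerulein group, and the labels do not say that each sample came from a separate animal. The p-values therefore measure the spread between these samples.

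Mup genes are transcribed in hepatocytes under the control of growth hormone, which acts through its receptor, the kinase JAK2 and the transcription factor STAT5B, and they also respond to thyroid hormone, glucocorticoids and androgens. In many strains the pulsatile growth hormone of males gives higher Mup transcription than the more even secretion of females. The genes arose by repeated duplication, and many of the copies are nearly the same in sequence.

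The sequences bear on how far the rows can be read as separate genes. In the GENCODE M21 annotation of the GRCm38 build, all 10 genes lay on the minus strand of chromosome 4, within a cluster of 22 Mup genes that ran from 59956804 to 62150863 (2.19 Mb) and held 0 other protein-coding genes. Mup7 (60066469 to 60070475), Mup2 (60135932 to 60154289), Mup1 (60498012 to 60501960), Mup10 (60578260 to 60582199) and Mup22 (60817589 to 60821463) came first by coordinate. Mup14 (61300023 to 61304000), Mup17 (61591929 to 61595871), Mup20 (62050234 to 62054158), Mup3 (62083476 to 62087342) and Mup21 (62147932 to 62150863) followed. The first 90 coding bases of 5 of them are shown to make the likeness visible. Capitals mark bases that differ from Mup22 or are inserted beside it in an alignment, and a base missing beside Mup22 carries no mark.
Mup22: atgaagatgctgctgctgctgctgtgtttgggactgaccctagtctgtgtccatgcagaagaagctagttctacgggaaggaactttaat
Mup10: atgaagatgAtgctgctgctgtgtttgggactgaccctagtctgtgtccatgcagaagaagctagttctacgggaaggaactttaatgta
Mup20: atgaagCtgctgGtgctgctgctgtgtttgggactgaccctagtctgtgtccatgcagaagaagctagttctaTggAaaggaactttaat
Mup3: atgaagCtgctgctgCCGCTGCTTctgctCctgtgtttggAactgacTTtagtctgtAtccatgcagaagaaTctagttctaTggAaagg
Mup21: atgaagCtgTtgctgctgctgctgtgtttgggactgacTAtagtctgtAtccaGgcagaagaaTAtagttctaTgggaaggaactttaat
In this stretch 1 base of Mup10 was marked, 4 of Mup20, 9 of Mup21 and 18 of Mup3. The count for Mup3 includes 9 inserted bases in a row, whereas bases that Mup10 lacks beside Mup22 are not counted. Over the whole coding sequence, Mup1, Mup2, Mup7, Mup10, Mup14, Mup17 and Mup22 were 98.34% to 99.44% identical to one another. Mup20 shared 90.06% to 91.16% of aligned bases with these 7 genes and Mup3 82.34% to 83.6%, while Mup3 and Mup21 were 94.75% identical to each other.

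**Figure D1:**
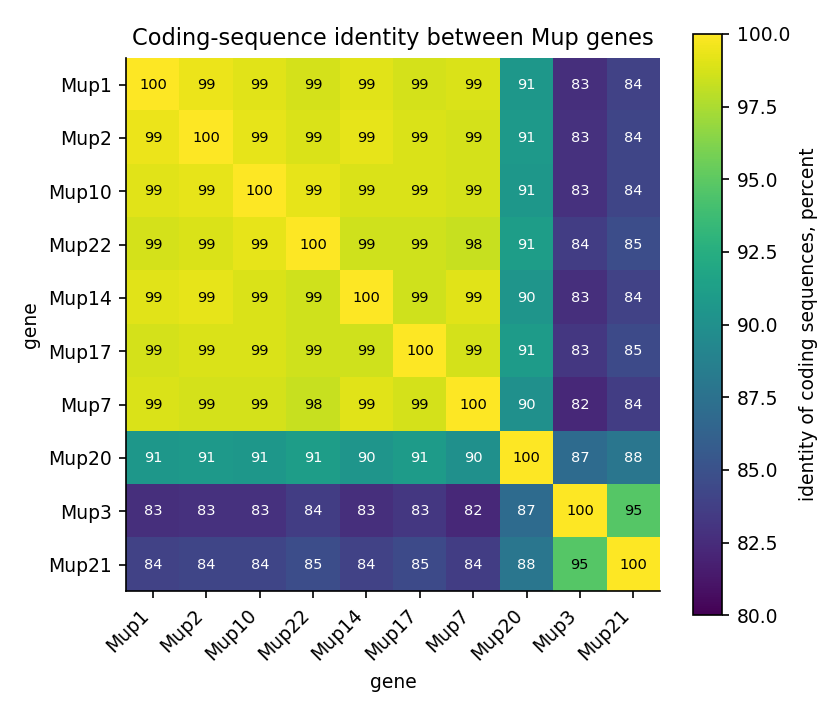
Identity of the coding sequences between each pair of the 10 Mup genes, in percent of aligned bases, with the genes on both axes and colour for identity. The 7 genes at the upper left form a block at 98% to 99%, and Mup3 pairs with Mup21 at 95%.

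The assignment of reads that fit more than 1 copy was not given in the sources used here, and the annotated genome is of another strain than Balb/c. As a measure of what a read can tell apart, windows of 100 bases from each gene's annotated transcripts were searched in the transcripts of all other genes. Windows found in no other gene made up 97.8% for Mup3, 95.5% for Mup21 and 61.2% for Mup20. They made up 44.3% for Mup1, 40.6% for Mup17, 26.6% for Mup10 and 23.9% to 24.5% for Mup2, Mup7 and Mup14. For Mup22 they made up 0%, so a read of that length cannot tell it from other copies, whereas most reads of Mup3 could be told apart.

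Mup transcripts were lower in SAP livers in every gene of the set that could be tested. Of the 10 genes, 9 passed the filter on low values (at least 1 TPM, transcripts scaled to a common total, in at least 6 of the 12 libraries), and all 9 were lower in SAP with 0 higher (limma on log2(TPM + 1), Benjamini-Hochberg adjusted p under 0.05 over all genes tested). Among all 11344 genes tested, 25% were lower and 19.5% higher by the same rule, 44.5% in either direction. The log2 changes of the 9 genes had a median of -1.84 and ranged from -2.16 to -0.86, against a median of -0.03 over all genes tested. Of all genes tested, 6.88% passed the threshold and fell at least as far as Mup20, the gene of the set with the smallest change. In bulk tissue, fewer hepatocytes and less Mup RNA per hepatocyte cannot be told apart.

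**Figure D2:**
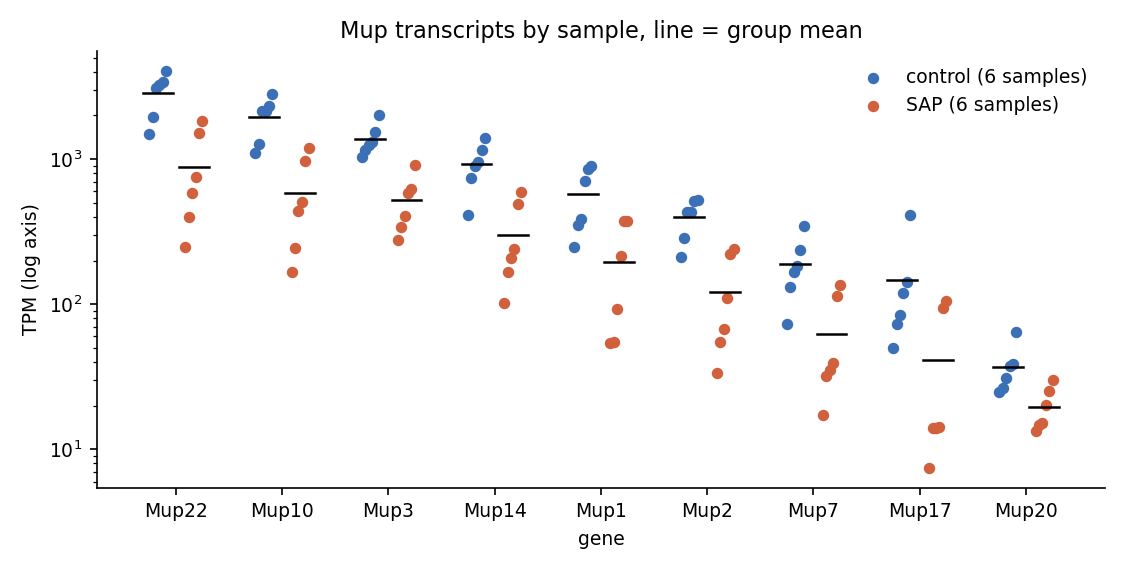
Level of the 9 tested Mup genes in each sample (TPM, log axis), with controls in blue and SAP in orange, points ordered by value within a group and a line at the group mean. Only for Mup3 do the groups separate, and in most other genes a pair of SAP samples reaches into the control range.

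In controls Mup22 and Mup10 had the highest median levels of the set. Mup22 ranged from 1496 to 4074 TPM in controls, with a median of 3150, and from 249.9 to 1826 TPM in SAP, with a median of 672. Of the 6 SAP samples 4 lay below every control, and the groups overlapped through SAP 12 and SAP 15. The log2 change was -1.95 ± 0.44 (SE; adjusted p = 0.00267 in limma). Mup10 ranged from 1097 to 2828 TPM in controls (median 2146) and from 168 to 1194 TPM in SAP (median 472). Here 5 SAP samples lay below every control and only SAP 15 reached into the control range, with a log2 change of -1.99 ± 0.43 (SE; adjusted p = 0.00217 in limma). Mup22 exceeded Mup10 in each of the 12 libraries. Because 0% of the 100-base windows of Mup22 were found in no other gene, its level and this order can depend on how shared reads were split.

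Mup14 and Mup2 had lower levels. In controls Mup14 spanned 413.6 to 1400 TPM around a median of 928, and in SAP 103 to 596 TPM around a median of 225. SAP 12 and SAP 15 were again the samples inside the control range, and the log2 change was -1.78 ± 0.40 (SE; adjusted p = 0.00271 in limma). Mup2 spanned 212 to 525.97 TPM in controls (median 431) and 33.5 to 239 TPM in SAP (median 89.1). It fell by 1.99 ± 0.44 on the log2 scale (SE; adjusted p = 0.00239 in limma), with the same pair of SAP samples above the lowest control.

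The secreted product of Mup1 has been studied as a circulating regulator of glucose and lipid metabolism in mice. Mup1 ranged from 249.95 to 899.6 TPM in controls (median 549) and from 54.5 to 376 TPM in SAP (median 153). Control 8 and control 3, at 249.95 and 350.4 TPM, lay below SAP 12 and SAP 15. The log2 change was -1.84 ± 0.53 (SE; adjusted p = 0.0124 in limma). Mup7 spanned 73.3 to 347 TPM in controls (median 176) and 17.2 to 135 TPM in SAP (median 37.4), a log2 change of -1.81 ± 0.48 (SE; adjusted p = 0.00789 in limma). Of the 6 controls, 4 lay above every SAP sample for either gene.

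The largest change and the widest spread of the set were those of Mup17. Its control values ran from 50.3 to 411.1 TPM with a median of 102, and its SAP values from 7.45 to 105 TPM with a median of 14.2. Among SAP samples 4 lay between 7.45 and 14.33 TPM, below every control, while SAP 12 and SAP 15 stood at 94.4 and 105 TPM. The fall of 2.16 ± 0.66 (SE; adjusted p = 0.0175 in limma) did not pass the threshold when genes with low values were kept in the test (adjusted p = 0.0511).

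The genes that differ in coding sequence from the 7 near-identical ones were Mup20, Mup3 and Mup21. Mup20 encodes darcin, a male pheromone that draws females to urine marks. It was low in all 12 libraries, with 24.9 to 64.0 TPM in controls (median 34.2) and 13.3 to 29.9 TPM in SAP (median 17.7). SAP 13 and SAP 15 lay inside the control range, and the log2 change was -0.86 ± 0.24 (SE; adjusted p = 0.0094 in limma). With values rescaled to leave out the acute-phase genes, the difference was -0.49 and did not pass the threshold (adjusted p = 0.073).

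Mup3 was the gene of the set whose groups did not overlap. Its lowest, median and highest control values were 1032, 1277 and 2006 TPM, and those in SAP 275.9, 496 and 905 TPM. The log2 change was -1.48 ± 0.26 (SE; adjusted p = 0.00041 in limma). Groups with SAP wholly below control occurred in 15.1% of all genes tested. Mup21, the nearest relative of Mup3, was listed at 0 in 4 controls and in 5 SAP samples. Its remaining values were 0.25 TPM in control 3, 1.85 TPM in control 7 and 0.17 TPM in SAP 14, so it was not tested.

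**Figure D3:**
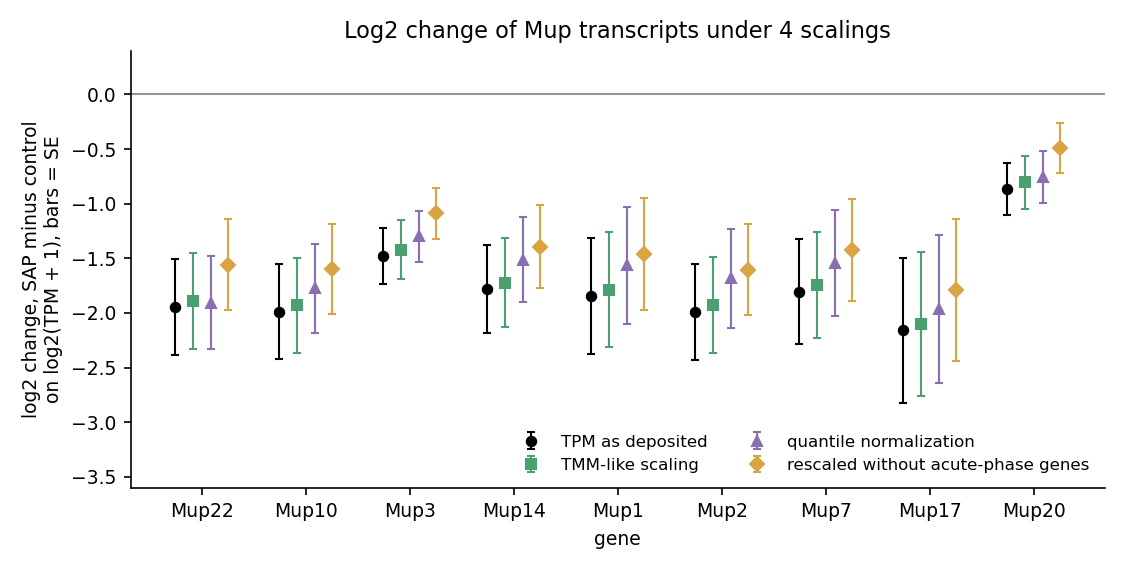
Log2 change of the 9 tested Mup genes (SAP minus control on the log2(TPM + 1) scale, bars are the SE) under the deposited scale and 3 other scalings. All 36 values are negative, and Mup20 rescaled without the acute-phase genes is the one that did not pass the threshold.

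Among the controls the median levels ran in the order Mup22, Mup10, Mup3, Mup14, Mup1, Mup2, Mup7, Mup17, Mup20 and Mup21. The ranges of each neighbouring pair in that order overlapped, except that every Mup20 value exceeded every Mup21 value. In SAP the medians placed Mup3 (496 TPM) above Mup10 (472 TPM) and Mup20 (17.7 TPM) above Mup17 (14.2 TPM), with overlapping ranges in both pairs. Among SAP samples both orders held only in SAP 10, SAP 13 and SAP 14. The SAP means kept the control order, with Mup10 at 588 TPM and Mup3 at 522 TPM, and Mup17 at 41.5 TPM and Mup20 at 19.7 TPM. These differences in order rest on medians and were not tested.

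The set was also summed within each sample, a value that does not depend on how reads shared among its members were split, though it still depends on the split with other Mup rows. In controls the sum was 4867.5, 9263.5 and 11144 TPM at its lowest, median and highest, and in SAP 924 TPM, 2178 TPM and 5404 TPM. The means were 8496 ± 2590 TPM in controls and 2738 ± 1792 TPM in SAP (SD, n = 6 each), 3.10 times apart. Samples SAP 10 to SAP 14 all lay below the lowest control, and SAP 15 at 5404 TPM lay between control 3 at 4867.5 TPM and control 8 at 5781 TPM. As a share of all TPM the set took 0.490% to 1.12% in controls and 0.0929% to 0.543% in SAP.

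Each gene's share of the sum overlapped between the groups. Mup22 made up 30.7% to 36.6% of the sum in controls and 27.03% to 34.1% in SAP, and Mup10 20.03% to 25.4% and 18.2% to 23.6%. Mup14 made up 8.50% to 13.1% and 9.68% to 12.7%. Median shares were higher in SAP for Mup3, at 22.6% against 16.96%, and for Mup20, at 0.863% against 0.452%. The differences in share were not tested.

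**Figure D4:**
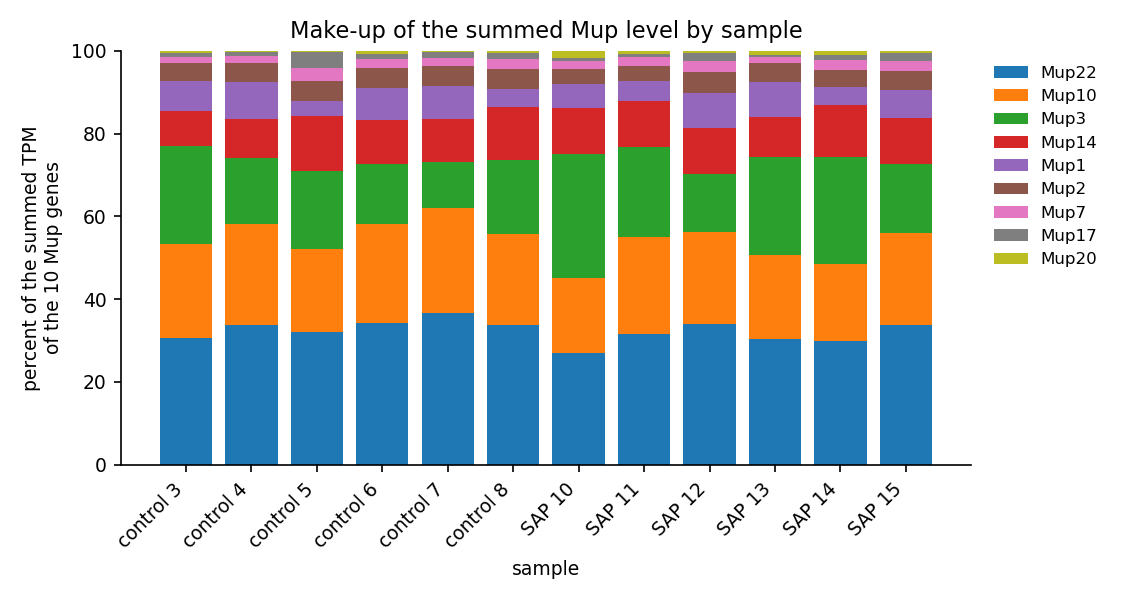
Make-up of the summed TPM of the 10 Mup genes in each of the 12 samples, in percent, with Mup21 too low to be seen. Mup22 and Mup10 take about the same part of each bar, and the Mup3 part runs from 11.2% to 29.8%.

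The spread between SAP samples was wide and ran through the set. The highest SAP sum was 5.85 times the lowest, against 2.29 times among controls. SAP 10 was the lowest SAP sample for 8 of the 9 tested genes, with SAP 11 lowest for Mup20. SAP 12 and SAP 15 were the 2 highest for the same number of genes, again with Mup20 as the exception. Control 3 was the lowest control for 7 genes and control 8 for Mup1 and Mup3.

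After group means were removed, the Pearson correlation of each gene's log2 value with the sum of the other members over the 12 libraries was 0.995 for Mup22, 0.993 for Mup2, 0.984 for Mup10 and 0.963 for Mup14. It was 0.938 for Mup7, 0.893 for Mup1, 0.885 for Mup3, 0.859 for Mup17 and 0.605 for Mup20. These values describe libraries that share a scale, and the part of reads shared among near-identical genes was not tested. Of the pairs, Mup10 with Mup22 (0.995) was highest and Mup17 with Mup20 (0.357) lowest. Control 5 set some members apart. It held the highest control value of Mup3, Mup7, Mup14 and Mup17, whereas its Mup1 value of 388.7 TPM was below the control median of 549 TPM.

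Acute-phase transcripts, those of plasma proteins made in inflammation, ran the other way among the SAP samples. The acute-phase list of 26 genes took 2.70% to 3.11% of all TPM in controls. Its share was 20.2% in SAP 12 and 21.45% in SAP 15, the samples with the most Mup RNA, and 27.6% in SAP 10 and 34.5% in SAP 14, those with the least. SAP 11 and SAP 13 stood between at 25.3% and 25.2%. Because TPM add up to a fixed total, a larger acute-phase share lowers all other values. With the list left out of the total, the highest SAP sum of the 10 genes was 5.39 times the lowest. The difference of this sum was then -1.45 in place of -1.84 on the log2 scale. The part of the acute-phase share in the spread between SAP samples was not tested.

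The other Mup genes moved like the set. Of the 12, 9 were tested and 8 were lower, with 0 higher and a median log2 change of -1.86. Among all genes tested, 25% were lower. In the 9 tested here, windows of 100 bases found in no other gene made up 0% (Mup19) to 30.6% (Mup8). Their likeness to the set can therefore depend on how shared reads were split, which was not tested. The exception was Mup18, with a difference of -0.74 and an adjusted p of 0.306 in limma. Mup9 was the most abundant Mup gene, and it was picked out after its values were seen. It ranged from 8055 to 23018 TPM in controls and from 1635 to 9972 TPM in SAP, a log2 change of -1.94 ± 0.43 (SE; adjusted p = 0.00243 in limma). It took 56.0% to 62.4% of all Mup TPM in controls and 55.2% to 61.8% in SAP. All Mup rows together made up 1.45% to 3.74% of the liver's TPM in controls and 0.282% to 1.70% in SAP.

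The pseudogene rows were lower in SAP when summed. Their summed level was 83.4 to 289 TPM in controls and 4.18 to 56.4 TPM in SAP, so the groups did not overlap, and the means of 181 ± 73.6 and 26.2 ± 23.7 TPM (SD, n = 6 each) were 6.92 times apart. Their share of all Mup TPM was 0.443% to 0.816% in controls and 0.142% to 0.368% in SAP, also without overlap. Of the 27 rows 7 were tested and 6 were lower, where 25% of all genes tested were lower and 15.1% had SAP wholly below control. These rows give no support beyond the sum, since some, such as Mup-ps14 (1 to 6.20 TPM in controls and 0 to 0.98 TPM in SAP), passed the filter through the controls, where they are higher. Mup-ps13 did not pass the threshold (-2.13; adjusted p = 0.0545 in limma), and Mup-ps17, which was not tested, had the higher mean in SAP (1.83 against 0.988 TPM). How many of these reads came from functional copies was not tested.

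**Figure D5:**
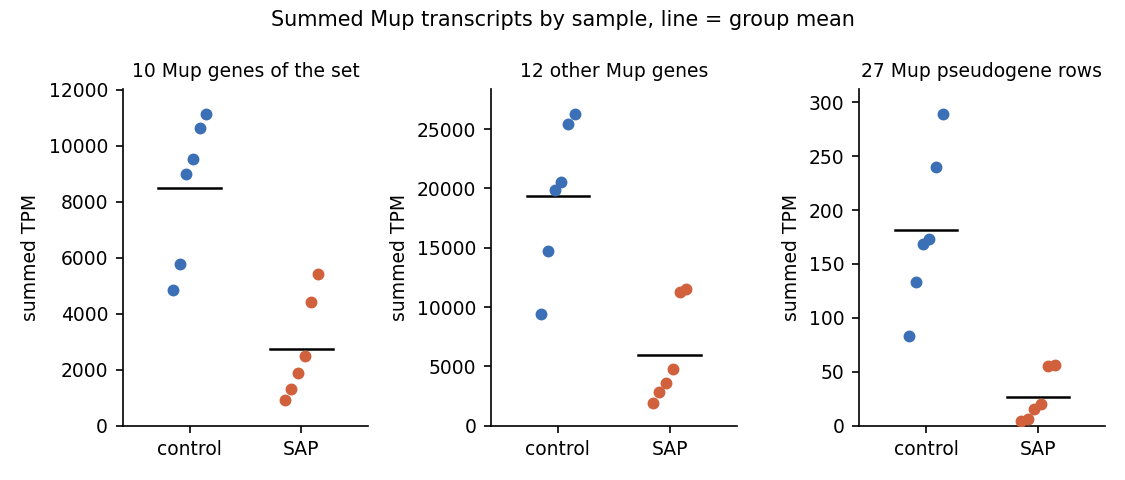
Summed TPM in each sample for the 10 Mup genes, the 12 other Mup genes and the 27 Mup pseudogenes, each on its own axis from 0, with points ordered by value and a line at the group mean. The groups overlap in the first 2 panels and are separate in the pseudogene panel.

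None of the tested genes next to the cluster was lower past the threshold. On the near side Inip differed by 0.32 ± 0.14 (SE; adjusted p = 0.0898 in limma) and Snx30 by 0.08 ± 0.13 (adjusted p = 0.664 in limma), and Slc46a2 was listed at 0 in all libraries. On the far side Slc31a2, a copper transporter gene, differed by 0.20 ± 0.08 (SE; adjusted p = 0.0617 in limma) and Fkbp15 by 0.19 ± 0.10 (adjusted p = 0.118 in limma), while Zfp37 stayed at or below 0.25 TPM. Inip, Slc31a2 and Fkbp15 passed it as higher in SAP under each of the 3 other scalings, and Inip and Slc31a2 did so without SAP 14 (adjusted p = 0.00732 and 0.00749).

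The genes of growth hormone signalling went in both directions. Of 13 listed genes 12 were tested, 6 were lower, 2 were higher and 4 were not past the threshold, with a median log2 change of -0.27. The shares over all genes tested were 25% lower and 19.5% higher. Ghr, the growth hormone receptor, went from 209.5 ± 14.7 to 103 ± 19.7 TPM (SD, n = 6 each), with every SAP value below every control value, a log2 change of -1.04 ± 0.12 (SE; adjusted p = 1.32e-05 in limma). Prlr, the prolactin receptor, fell by 2.59 ± 0.25 (SE; adjusted p = 2.88e-06 in limma). Igf1, Igfals and Igfbp1 of the list fell by 0.70, 2.16 and 1.17 (adjusted p = 0.000217, 0.00129 and 0.039 in limma). Stat5b, the transcription factor that carries the signal, fell by 0.51 ± 0.13 (SE; adjusted p = 0.00731 in limma). With the acute-phase genes left out of the total its difference was -0.16 and did not pass the threshold (adjusted p = 0.256), nor did it within the libraries of high Xist (0.0943).

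No tested feedback inhibitor of the pathway was lower past the threshold. Socs3, which is induced by cytokines and dampens receptor signalling, rose from 2.01 ± 0.59 to 33.5 ± 13.5 TPM (SD, n = 6 each), a log2 change of 3.43 ± 0.25 (SE; adjusted p = 3.4e-07 in limma). Cish was the other gene of the list that rose, by 1.89, and it passed the filter through the SAP samples alone. Socs2, a direct STAT5 target, had a difference of 0.16 ± 0.29 (SE; adjusted p = 0.683 in limma), but passed as higher within the libraries of high Xist described below (0.91, adjusted p = 0.0455).

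Among transcription factors that act on sex-biased or hormone-driven liver genes, 13 of 14 were tested, 5 were lower, 0 were higher and 8 were not past the threshold. Of all genes tested, 25% were lower and 19.5% higher. Bcl6, a repressor that opposes STAT5 at its target genes, fell from 16.9 ± 5.64 to 3.96 ± 2.96 TPM (SD, n = 6 each), a log2 change of -1.94 ± 0.33 (SE; adjusted p = 0.000303 in limma). The thyroid hormone receptor genes Thra and Thrb fell by 0.59 and 0.67 (adjusted p = 0.00112 and 0.00131 in limma), though Thrb did not pass within the libraries of high Xist (0.0519). Cux2, a factor of the female liver, and Cebpb were the others that fell, by 1.02 and 0.69. Nr3c1, the glucocorticoid receptor, had a difference of -0.02 ± 0.12 (SE; adjusted p = 0.892 in limma). It was higher in SAP when the acute-phase genes were left out of the total, by 0.33 (adjusted p = 0.00717).

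The labels give no sex. Xist, the RNA of the inactive X chromosome, was found at 4.59 to 60.66 TPM in all 12 libraries, and 4 Y-linked genes were at most 0.1 TPM each. Xist with next to no Y-linked RNA in each library is the pattern of female mice, though no label states the sex. Lists of genes known to be higher in male or in female liver held more lower than higher genes. Over all genes tested, 25% were lower and 19.5% higher. Of 13 male-biased genes 8 were tested, 5 were lower and 0 higher, with a median of -0.54. Slco1a1, a steroid and organic anion transporter, fell by 3.00 ± 0.40 (SE; adjusted p = 4.35e-05 in limma), Selenbp2 by 2.69 and the hydroxylase gene Cyp7b1 by 1.02, and Gstp1 and Ugt2b38 fell by 0.24 and 0.65. Slco1a1 had SAP values of 0.22 to 2.47 TPM and passed the filter through the controls, where it is high. Of 15 female-biased genes 13 were tested, 11 were lower and 0 higher, with a median of -2.13. Hao2, a hydroxyacid oxidase, fell by 4.15 ± 0.32 (SE; adjusted p = 5.52e-07 in limma), and the log2 changes of the cytochrome P450 genes Cyp2a4 and Cyp17a1 were -3.42 and -2.62.

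The lipocalin fold is shared by other secreted proteins, some of whose transcripts rose. Of 15 lipocalin genes outside the Mup genes 9 were tested, with 5 higher, 3 lower and a median of 0.62, and Ptgds did not pass (-0.14). These counts stand beside 19.5% higher and 25% lower of all genes tested. Lcn2, an iron-siderophore carrier of the acute phase, rose from 186 ± 72.4 to 10214 ± 1836 TPM (SD, n = 6 each), a log2 change of 5.85 ± 0.24 (SE; adjusted p = 2.33e-09 in limma). The orosomucoid genes Orm2 and Orm1 rose by 5.44 and 3.64, and Orm3 and Ambp by 0.67 and 0.62. The retinol carrier gene Rbp4 fell by 1.03, C8g by 1.02 and Apom by 0.75. In the acute-phase list, 24 of 26 genes rose and 0 fell, Saa3 by 9.90 and Itih4 by 2.25 on the log2 scale.

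Ranked by the same group-centred correlation over the 12 libraries were 7422 genes outside the Mup symbols with a mean of at least 5 TPM. The genes that followed the set's sum most closely were Apoc3 (0.849), an apolipoprotein gene, Pcbd2 (0.848), Arhgap26 (0.835), Cryz (0.834) and Serpina1b (0.832), a liver antiprotease gene. The median over all ranked genes was 0.139, and the 99th percentile was 0.748. Within the 6 SAP samples the value ran from 0.814 for Arhgap26 to 0.992 for Apoc3. Within controls it was 0.915 for Arhgap26, 0.852 for Cryz, 0.771 for Pcbd2, 0.545 for Apoc3 and 0.134 for Serpina1b. All 5 were lower in SAP, from -0.29 for Pcbd2 to -1.46 for Serpina1b, where 25% of all genes tested were lower. However, Pcbd2 did not pass the threshold under the 3 other scalings (0.09 and adjusted p = 0.261 with the acute-phase genes left out). The 5 were picked as the highest of this ranking, so their values within each group come from the same data. The correlations used the deposited scale, on which a larger acute-phase share lowers all other values, and its part in them was not tested.

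Of 14 hepatocyte marker genes 9 were lower, 2 higher and 3 not past the threshold, and their summed level was 144100 to 156600 TPM in controls and 92480 to 107300 TPM in SAP. Neutrophil markers summed to 5.43 to 20.29 TPM in controls and 37.61 to 113 TPM in SAP, with 3 of 4 tested markers higher, 1 of which (Retnlg) passed the filter through the SAP samples alone. Kupffer cell markers had 2 higher and 3 lower of 11 tested, near the shares of all genes tested (19.5% higher and 25% lower). Monocyte markers had 3 higher and 1 lower of 4, where Itgam, 1 of the higher ones, also passed the filter through SAP alone. All 5 tested erythroid markers were lower, with sums of 606.8 to 5292 TPM in controls and 341.4 to 716.2 TPM in SAP. Sinusoidal endothelium markers had 4 higher and 2 lower of 11 tested, stellate cell markers 6 and 1 of 10, and cholangiocyte markers 0 and 0 of 3. With so few markers, the counts of each list stand beside those shares and were not tested against them. Of 11 lymphocyte markers only Gzma was tested, which reached the filter through the 6 SAP samples (1.04 to 3.52 TPM, against 0.16 to 1.53 TPM in controls), so its direction says nothing of the list. The 1 pancreatic acinar marker tested, Cela1, was lower, at 41.5 to 67.5 TPM in controls and 10.6 to 18.6 TPM in SAP. It made up most of the acinar sums of 42.19 to 68.97 TPM in controls and 12.1 to 19.49 TPM in SAP. No other acinar marker exceeded 4.54 TPM in any library. Mup genes are also expressed in salivary and lacrimal glands, and 8 of the 9 markers of those glands in the table were listed at 0 in every library. The other was the amylase gene Amy1, at 161.1 to 210.9 TPM in controls and 92.9 to 128 TPM in SAP, a log2 change of -0.77 ± 0.09 (SE; adjusted p = 2.14e-05 in limma). Xist split the libraries across the groups, with control 5, SAP 11, SAP 13, SAP 14 and SAP 15 at 17.1 TPM or less and the others at 49.1 TPM or more. Malat1 and Firre, other nuclear RNAs, had differences between the groups of -1.29 and -0.85 that did not pass the threshold. Both passed without control 5 or SAP 12 and Malat1 also without SAP 10 (adjusted p = 0.0314 to 0.0454). Neat1 fell by 1.24 (adjusted p = 0.0419 in limma), a call lost without control 3, 4, 6, 7 or 8 or SAP 13, 14 or 15 (0.0692 to 0.0896). It was also lost with the rescaling (0.1), without the filter (0.105), with the robust step (0.0589) and with the Xist split as a term, where the difference was -0.41 (0.294). With that term the differences of Firre and Malat1 were -0.01 and -0.04. The split was drawn at the largest gap in Xist of these same libraries, and Xist is itself on the list of nuclear RNAs. The smaller differences of the other nuclear RNAs with that term therefore decide nothing. Within the high Xist libraries (5 control, 2 SAP) all 9 Mup genes had lower means in SAP and 6 passed the threshold, but Mup1 (-1.92), Mup7 (-1.70) and Mup17 (-1.65) did not (adjusted p = 0.0878, 0.0879 and 0.153). With values rescaled to leave out the acute-phase list, 6043 of all genes tested were higher and 1272 lower, against 2211 and 2832 on the deposited scale, and 8 of the 9 Mup genes remained lower past the threshold. The part of these library-wide differences in the Mup results was not tested.

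The DNA before the start sites was searched for motifs of factors known to act on these genes. RefSeq windows of 250 bases before the annotated start on GRCm38.p6 were available for 7 of the 10 genes (Mup2, Mup3, Mup7, Mup10, Mup14, Mup17 and Mup21). Mup10 and Mup3 are printed as one near-identical copy and one divergent copy, with motif matches in capitals.
Mup10, chr4:60582156-60582405, minus strand: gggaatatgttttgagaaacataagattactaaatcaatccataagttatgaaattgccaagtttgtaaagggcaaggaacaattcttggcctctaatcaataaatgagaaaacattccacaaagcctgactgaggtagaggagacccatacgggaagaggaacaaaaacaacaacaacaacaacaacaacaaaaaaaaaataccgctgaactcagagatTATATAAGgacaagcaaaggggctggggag
Mup3, chr4:62087318-62087567, minus strand: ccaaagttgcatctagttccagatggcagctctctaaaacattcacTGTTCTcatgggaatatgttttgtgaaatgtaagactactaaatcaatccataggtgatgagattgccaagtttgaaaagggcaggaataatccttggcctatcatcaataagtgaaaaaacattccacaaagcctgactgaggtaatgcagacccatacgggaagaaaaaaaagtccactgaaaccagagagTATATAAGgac
The STAT motif TTCNNNGAA occurred in 0 of the 7 windows and in 7.01% of 32817 windows of all genes. The C/EBP-like motif TTGCNNAA also occurred in 0 of 7 (9.57% of all windows), as did TATAAA (12.4%). AGAACA, part of the steroid receptor motif, occurred as its reverse complement TGTTCT in Mup3 and Mup21, 204 and 198 bases before the start, and in either orientation in 16.1% of all windows. Once these windows had been seen, the letters TATATAAG were added to the search, and they occurred in 5 of 7 windows (0.935% of all windows), from 8 bases before the start in Mup21 to 30 in Mup10. The windows end at different points of the shared sequence, those of Mup7 and Mup14 earlier than the rest. The distances and the lack of a match in Mup7 and Mup14 therefore depend on the annotated starts. All motifs were searched on both strands, TATATAAG and the reverse complement of TATAAA can overlap, and a match or its absence in these windows describes letters alone.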

How the data were processed

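The authors deposited 1 table of 55487 rows and 12 sample columns, whose values were taken as TPM. No header names the unit, which was inferred from column totals of 993412 to 995793. Sequencing depth cannot be read from TPM and is unknown. The submitters' processing notes name edgeR without a version or role. The aligner, build, annotation, strand and treatment of shared reads were not given in the sources used here. DESeq2, meant for counts, was not run on TPM.

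All genes reaching 1 TPM in 6 or more libraries were fitted on log2(TPM + 1) with limma 3.58.1 (R 4.3.3, trend on), with group as the only term, two-sided, adjusted with Benjamini-Hochberg at 0.05 over all genes tested. Log2 changes (SAP minus control) are too small for low genes because of the pseudocount. The fit was tested on simulated data. List counts include genes that met the filter largely through the group where they are higher (Cish, Cux2, Slco1a1, A1bg, Atp6v0d2, Marco, Retnlg, Itgam, Fcgr1 and Gzma), and the counts are descriptions.

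The set, the gene lists and the tests were chosen with earlier results of these data known. Named genes were the set, the 3 genes of each pathway list with the smallest adjusted p, Ghr, Stat5b, Socs2 and Nr3c1, the 5 genes most like the summed level, and up to 3 neighbours on each side of the cluster. Others were named after their values were seen. Alternatives were a TMM-like scaling (trimming 30% of ratios and 5% of levels), quantile normalization, rescaling without the acute-phase list, keeping all genes, a minimum mean of 5 TPM, a pseudocount of 0.1, limma without trend, a robust step, another choice or the sum of rows sharing a symbol, a term for the Xist split, only libraries of high Xist, and leaving out each library.

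Coding sequences and positions came from GENCODE M21 and were aligned with Biopython 1.88.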

Additional observations from a re-analysis of the deposited data

Results flagged for a closer look

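In 6 of 88 groups of 6 samples examined, 1 sample stood apart from the other 5, with a gap to its neighbour of more than 0.625 of the group's range. For independent values of a normal distribution, chance gives such a gap in about 1 in 20 groups. The groups here hold TPM not known to be normal and reuse the same 12 libraries, so the 6 cannot be set against that rate. For Mup21 in SAP, with 1 sample above 0, the gap was the whole range in any case.

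Mup17 was at 411.1 TPM in control 5, against 50.27 to 141.97 TPM in the other controls. Mup20 was at 63.99 TPM in control 6, against 24.93 to 38.81 TPM. Mup21 was at 1.85 TPM in control 7, against 0 to 0.25 TPM, and at 0.17 TPM in SAP 14, with the other SAP samples listed at 0. The repressor gene Bcl6 was at 9.64 TPM in SAP 13, against 1.79 to 4.64 TPM in the other SAP samples. The female-biased gene Cyp2a4 was at 1123.75 TPM in control 5, against 334.9 to 457.69 TPM in the other controls.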

How the results depend on the processing

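No paired analysis was possible because the groups share no replicate number. Over 24 alternatives, 211 of 216 values of the 9 tested Mup genes stayed lower and past the threshold, and all 216 stayed negative. The exceptions were Mup17 with no filter (adjusted p = 0.0511), Mup20 rescaled without the acute-phase list (0.073), and Mup1, Mup7 and Mup17 in the high Xist libraries alone (0.0878, 0.0879 and 0.153), where fewer samples were compared. Not all 216 values were free to move. No gene of the set shared its symbol with another row, so the choice or sum of such rows could not alter its log2 change. The filters, the trend and the robust step also leave the log2 change itself as it was. With each library left out in turn, 9 of 9 were lower and 0 higher, and the difference of the set's sum ran from -2.09 to -1.58. Lower genes among all tested ran from 2536 to 3083 and higher ones from 1956 to 2465, the growth hormone list had 5 to 6 lower and 2 higher, the transcription factor list 4 to 5 and 0, male-biased genes 5 to 7 and 0, female-biased genes 11 to 12 and 0, and the lipocalins 3 and 5. Rescaling without the acute-phase list moved the median of all genes to 0.305 and gave 1272 lower and 6043 higher genes, 4 higher growth hormone genes, 3 higher transcription factors and 3 lower male-biased genes. It turned Nr3c1 to 0.333 and Pcbd2 to 0.091. The high Xist libraries alone gave 1830 lower genes, 4 higher growth hormone genes, 1 higher transcription factor and 3 lower male-biased genes. A mean of at least 5 TPM left 1 higher growth hormone gene, and quantile normalization and the Xist split as a term gave 1 higher transcription factor each. The cause of these shifts was not tested beyond the fewer genes or samples named. The depth is unknown, so its limit on low genes such as Mup21 cannot be given.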
